A study of Mus musculus with 4 samples.

Results

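The 128 well-expressed long noncoding RNA genes described here were chosen by their level in mouse 4T1 breast cancer cells: a gene entered when the deposited annotation gave it a long noncoding biotype and its FPKM (fragments on the gene, scaled to its exon length and to the size of the library) was at least 5 in any of the 4 libraries. They make up 128 of 7783 genes of these biotypes and of 49585 genes in the table. Of the 7783, 2751 were above 0 in any library and 657 reached 1 FPKM. By biotype, 47 members were lincRNA, 40 antisense, 38 processed_transcript and 3 sense_intronic. All 128 are accounted for below, either by name or within a count.

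4T1 is a mouse line of triple-negative breast cancer, and the study compared 2 clones of it, each grown from a single cell and each 1 clone only: 4T1–HM, picked as highly metastatic, and 4T1–LM, picked as lowly metastatic. Cultures were kept for 48 h with 50 μmol/L of deferasirox (DFX), an iron chelator, dissolved in DMSO (HM_DFX and LM_DFX), or with DMSO alone (HM_Ctrl and LM_Ctrl). Each condition was measured in 1 library of bulk RNA-seq, so differences between conditions carry no error from replicates and are given without p-values. Clone, well and library cannot be told apart. In bulk samples, less RNA per cell and fewer cells that make an RNA cannot be told apart either.

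Long noncoding RNAs are transcribed and processed much like messenger RNAs but carry no long reading frame. Some act as RNA, such as the scaffolds of nuclear bodies, and others serve mainly as carriers: small nucleolar RNAs (snoRNAs), the guides that direct modification of ribosomal RNA, are cut from the introns of host genes, and many microRNAs are cut from longer noncoding transcripts. Many snoRNA host genes belong to the class whose RNA starts with a C followed by a run of pyrimidines, a start shared with ribosomal protein mRNAs, and several of their spliced RNAs are known to be short-lived because translation of a short reading frame sends them to decay. Antisense and divergent noncoding RNAs lie opposite or beside a protein-coding gene, and often share its promoter region.

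The snoRNA hosts and the microRNA carriers were among the members with the largest ratios, so their sequences are shown first. Of 17 members that hold at least 1 annotated snoRNA gene on their own strand, 15 had a promoter in the RefSeq table (GRCm38.p6, the mm10 assembly that the files use). The lines below run from 30 bases before the RefSeq start, 60 bases in all, 5′ to 3′ on the gene's strand, and the capitals mark the longest run of C followed by pyrimidines that begins within 10 bases of the start. The RefSeq start lies 179 bases from the start in the files for Gas5, 68 for Snhg8, 58 for Snhg17, 32 for Snhg5, 12 for Snhg1 and 3 for Rab26os, and at it for the other genes shown. The starts used in these cells are not known, so the presence or absence of a run holds for the RefSeq start only. The 10 hosts below are all those with a promoter that were at least 1.5 times higher under DFX in both clones, and 5 carry such a run and 5 do not.
2410006H16Rik: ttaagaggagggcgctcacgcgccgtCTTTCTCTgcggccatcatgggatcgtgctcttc
Snhg12: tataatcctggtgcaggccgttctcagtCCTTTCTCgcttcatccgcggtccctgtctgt
1110038B12Rik: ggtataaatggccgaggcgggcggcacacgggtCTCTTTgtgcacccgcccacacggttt
Snhg8: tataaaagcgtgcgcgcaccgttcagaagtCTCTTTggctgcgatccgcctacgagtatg
Snhg5: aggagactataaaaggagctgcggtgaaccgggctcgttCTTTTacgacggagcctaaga
Snhg15: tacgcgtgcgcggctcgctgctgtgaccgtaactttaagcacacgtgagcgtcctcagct
Zfas1: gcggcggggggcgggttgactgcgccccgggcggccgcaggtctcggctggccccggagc
Snhg1: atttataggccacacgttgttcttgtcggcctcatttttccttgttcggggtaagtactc
Gas5: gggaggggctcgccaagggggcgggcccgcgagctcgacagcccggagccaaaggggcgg
Snhg17: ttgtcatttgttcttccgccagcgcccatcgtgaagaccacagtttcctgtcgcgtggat
The windows lie at chr11:62602847-62602906 (+) for 2410006H16Rik, chr4:132308648-132308707 (+) for Snhg12, chr17:34952442-34952501 (-) for 1110038B12Rik, chr3:123508307-123508366 (-) for Snhg8, chr9:88522868-88522927 (-) for Snhg5, chr11:6528731-6528790 (-) for Snhg15, chr2:167062904-167062963 (+) for Zfas1, chr19:8723457-8723516 (+) for Snhg1, chr1:161034571-161034630 (+) for Gas5 and chr2:158361493-158361552 (-) for Snhg17. Of 4 hosts with a promoter that were lower under DFX in both clones, 3 carry such a run, and Snhg3 and Rab26os are shown as examples.
Snhg3: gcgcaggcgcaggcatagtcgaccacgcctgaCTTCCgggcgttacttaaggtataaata
Rab26os: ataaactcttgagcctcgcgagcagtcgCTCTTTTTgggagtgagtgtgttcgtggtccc
Their windows are chr4:132353657-132353716 (-) and chr17:24528221-24528280 (+). Over all 15 hosts with a promoter, 8 (53.3%) held a C and 4 pyrimidines near the start, against 8325 of 27025 promoters of the table (30.8%), and 13 of 44 other members with a promoter (29.5%). The letters TATAAA, searched on both strands of the 300-base window, were in 6 of the 15 host promoters (40.0%), 2 of the 44 others (4.55%) and 14.2% of all promoters. No string of letters searched in this report contains another.

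The microRNAs shown next lie inside or directly upstream of members that were lower under DFX: the first 4 inside a member, and miR-23a, miR-27a and miR-24 upstream of one. Those of Snhg20, which also holds a hairpin, are not shown. The seed, bases 2 to 8, is in capitals.
mmu-miR-100-5p: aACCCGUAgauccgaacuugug
mmu-let-7a-2-3p: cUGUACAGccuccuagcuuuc
mmu-miR-125b-5p: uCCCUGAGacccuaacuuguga
mmu-miR-22-3p: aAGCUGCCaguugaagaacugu
mmu-miR-23a-3p: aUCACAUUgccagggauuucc
mmu-miR-27a-3p: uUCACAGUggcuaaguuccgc
mmu-miR-24-3p: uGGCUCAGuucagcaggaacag
These sequences are from RefSeq (GRCm38.p6), and no 2 of the 7 share a seed. miR-100, let-7a-2 and miR-125b-1 lie on the plus strand of chromosome 9 inside 2610203C20Rik, and the miR-125b-1 hairpin lies inside the short sense_intronic gene Gm28119 as well. The miR-23a, miR-27a and miR-24-2 hairpins lie on chromosome 8 directly upstream of Gm26532, which shares 2 bases with the last of them.

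As recovered from the deposited values, fragments on genes numbered 16745608 and 14363065 in the control and DFX library of HM, and 15731521 and 21883855 in those of LM. Members took 0.489% and 1.06% of these in HM and 0.497% and 0.649% in LM. Of 10 epithelial markers 9 reached 1 FPKM, and their summed level, most of it Krt8 and Krt18, was 1794 and 586 FPKM without and with DFX in HM and 2347 and 1121 in LM. Of the 10, 5 were at least 2-fold lower with DFX in HM and 0 higher, and in LM 3 were lower and 1, Krt19, was higher. None of 6 leukocyte and 4 endothelial markers reached 1 FPKM (4 of the leukocyte markers were at 0 throughout), and 2 of 6 fibroblast markers did, with a summed level of 3.65 to 6.39 FPKM. Their part in the results below was not tested. The label "noncoding" did not hold for every member: 88 matched a RefSeq gene, of which 11 are listed there as protein-coding, among them Cct6a, a chaperonin subunit gene, Spata5l1, Tmem134 and Ptpmt1. In the GENCODE M21 annotation 7 members carry another name and 8 another biotype.

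Under DFX members differed from their control in both directions. In the HM clone 32 of 128 had at least 2 times the control level in HM_DFX on the scale of FPKM + 1, and 32 were lower by as much, where 6.93% of the 12669 genes with 1 FPKM or more were higher and 12.4% were lower. In the LM clone 30 were higher with DFX and 31 lower, where 7.09% of all expressed genes were higher and 8.72% lower. These counts are not evidence about noncoding genes as a class, since the members were selected on the same libraries: 25 members reached 5 FPKM in DFX libraries only and 40 in control libraries only, and such a gene was bound to have its highest value there. The median log2 ratio of members was -0.17 in HM and -0.30 in LM, beside -0.10 and -0.04 over all expressed genes. Among 8308 protein-coding genes chosen by the same FPKM rule, 562 were higher and 1086 lower in HM, and 668 and 680 in LM.

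Most members had the same sign in both clones. The comparisons within HM and within LM share no library, and 113 of 128 members (88.3%) had the same sign in both. Beside this stand 75.9% of all expressed genes and 78.8% of protein-coding genes chosen by the same FPKM rule. At the 2-fold threshold 25 members were higher in both clones, 19 were lower in both, and 0 were called in opposite directions. Opposite calls were rare in all genes, with 4 of the 8308 protein-coding genes and 21 of 12669 expressed genes. The 0 therefore does not set the members apart. The share called higher in both was 19.5% of members and 3.46% of all expressed genes, a contrast that the choice of members by their level in these libraries affects. A median-ratio scaling moved the log2 ratio of a typical expressed gene in HM by 0.12, and the values of single members below should be read against that shift.

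**Figure D1:**
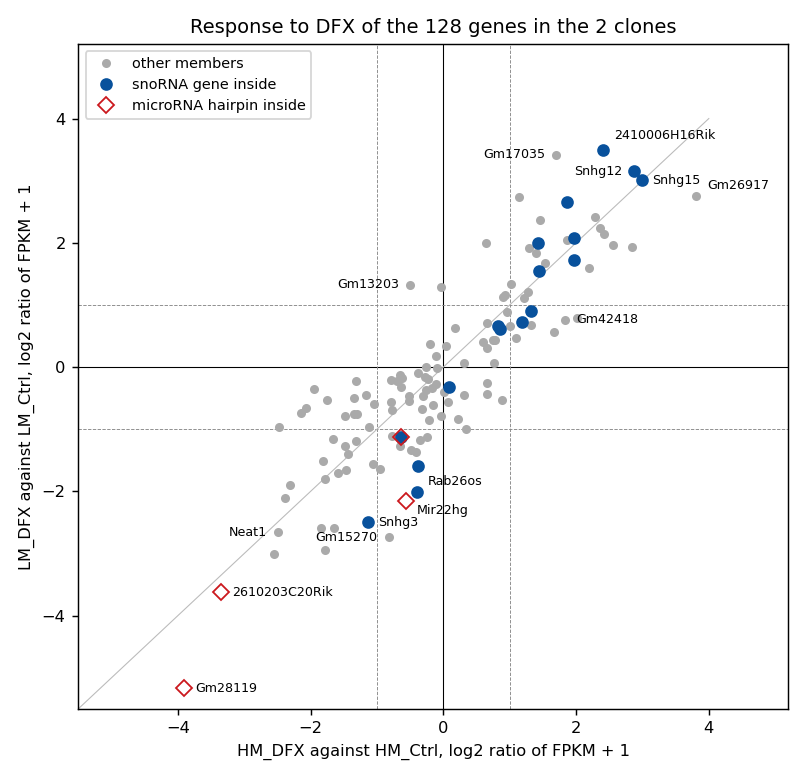
Response to DFX of each of the 128 genes, as the log2 ratio of FPKM + 1, in the HM clone (x axis) and in the LM clone (y axis). Each point is 1 gene, dashed lines mark 2-fold, blue points hold a snoRNA gene, red diamonds a microRNA hairpin (Snhg20 holds both), and 113 of 128 points lie in the quadrants of equal sign.

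Among the 17 snoRNA hosts, 10 were at least 2-fold higher in HM_DFX and 1 was lower, and 8 were higher and 4 lower in LM_DFX. Over all expressed genes 6.93% were higher and 12.4% lower in HM, and 7.09% and 8.72% in LM, and the hosts were selected by level in these same libraries. Their summed level went from 643 FPKM in HM_Ctrl to 2228 in HM_DFX, and from 592 in LM_Ctrl to 2336 in LM_DFX. As a share of all fragments the hosts took 0.116% and 0.123% in the controls and 0.293% in each DFX library. The median log2 ratio was 1.32 in HM and 0.90 in LM, and in the other 111 members it was -0.25 and -0.35.

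Snhg15, host of Snora9 (chr11:6525591-6528760), was at 12.8 FPKM in HM_Ctrl and 109 in HM_DFX, and at 10.7 and 93.3 FPKM in the control and DFX library of LM. Both treated libraries were far above both controls, by 8.48-fold in HM (95% counting interval 7.5 to 9.62) and 8.71-fold in LM (7.61 to 10.0). Such intervals are exact and cover the counting of fragments only, not the variation between cultures. Snhg12, which holds 5 snoRNA genes, was at 17.4, 133, 9.46 and 92.3 FPKM in HM_Ctrl, HM_DFX, LM_Ctrl and LM_DFX (the order of all sets of 4 values below), with ratios of 7.66 (6.95 to 8.46) and 9.76 (8.56 to 11.2). 2410006H16Rik, which carries Snord49a, Snord49b and Snord65, was the member with the highest mean level: it was at 206 and 1098 FPKM in HM and at 110.3 and 1253 FPKM in LM. Its control level was 1.87-fold higher in HM than in LM (1.72 to 2.04), whereas its DFX levels were 1.14-fold apart in the other direction, so its response was 5.32-fold in HM (5.04 to 5.62) and 11.4-fold in LM (10.6 to 12.2). The clones thus started apart and ended close together.

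Zfas1, host of Snord12, followed with 19.8, 74.1, 14.4 and 96.1 FPKM, which is 3.75-fold in HM (3.49 to 4.04) and 6.68-fold in LM (6.16 to 7.24). Snhg1, which holds 8 snoRNA genes, was at 20.9, 84.4, 17.6 and 77.4 FPKM, 4.03-fold (3.76 to 4.33) and 4.4-fold (4.09 to 4.74). 1110038B12Rik, host of Snord52, was at 42.7, 169.5, 48.4 and 161.6 FPKM, 3.97-fold and 3.34-fold. In each of these 3 genes both DFX libraries were above both controls. Gas5, a growth-arrest RNA with 9 snoRNA genes in the annotation, was at 38.7, 106, 42.3 and 126 FPKM, a smaller difference of 2.75-fold (2.62 to 2.88) and 2.98-fold (2.85 to 3.11). Epb41l4aos was at 38.3, 105, 31.0 and 128 FPKM.

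Smaller differences in the same direction were found in Snhg6 (19.2, 49.6, 29.5 and 55.9 FPKM) and Snhg8 (35.0, 81.05, 36.8 and 61.5 FPKM), which passed 2-fold in HM and not in LM. Snhg5, at 28.2, 51.7, 29.2 and 45.2 FPKM, and Snhg17, at 8.39, 15.5, 6.78 and 11.3 FPKM, passed it in neither clone, with ratios between 1.55 and 1.85. Cct6a differed by at most 1.26-fold between control and DFX, at 129 and 137 FPKM in HM and 157 and 125 in LM. It is a chaperonin gene that holds Snora15, and its row is labelled processed_transcript.

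**Figure D2:**
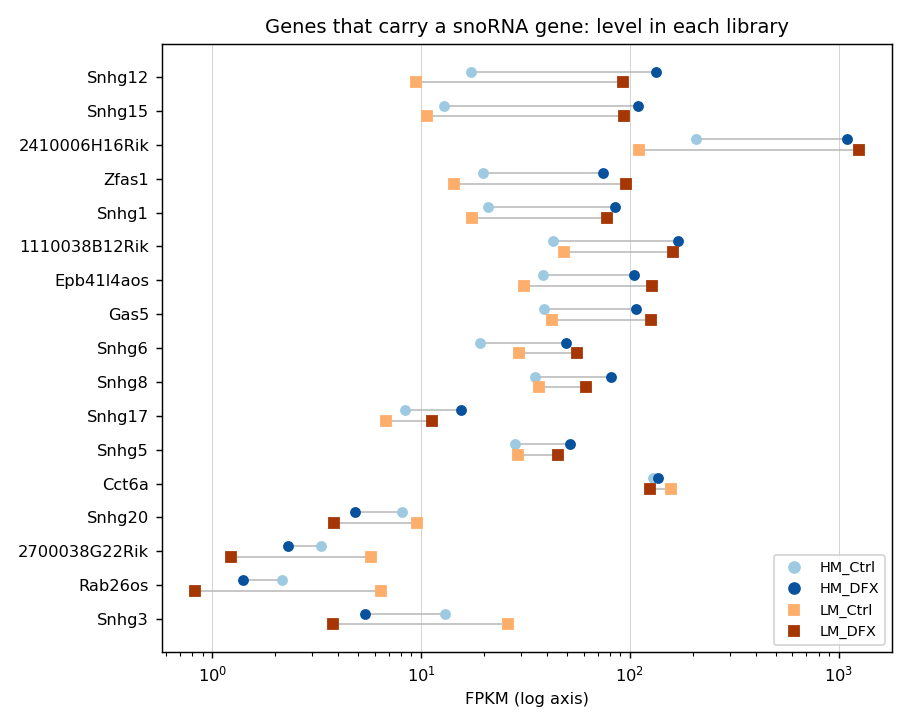
Level of the 17 snoRNA host genes in each library, in FPKM on a log axis, with a line joining the control and DFX library of each clone (circles HM, squares LM). In the upper 12 genes both DFX points lie right of their controls, and in the lowest 4 both lie left.

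The other 4 hosts were lower under DFX, 1 of them past 2-fold in HM and all 4 in LM. Snhg3, host of Snora73a and Snora73b, was at 13.0 and 5.37 FPKM in HM and at 26.0 and 3.8 FPKM in LM. This is 2.43-fold lower in HM (1.86 to 3.19) and 6.85-fold lower in LM (5.39 to 8.8). Rab26os, with Snord60, was at 2.16, 1.4, 6.4 and 0.827 FPKM, from 18, 10, 50 and 9 fragments, so that only the LM difference, 7.73-fold (3.76 to 17.9), exceeds counting error. Snhg20 was at 8.11, 4.85, 9.54 and 3.84 FPKM, and 2700038G22Rik, with Snord93 and named after its values were seen, at 3.33, 2.31, 5.74 and 1.23 FPKM. In all 4 genes LM_Ctrl was the highest library and LM_DFX the lowest. Rab26os and 2700038G22Rik reached 5 FPKM in LM_Ctrl only, so that library was bound to be their highest. Snhg20 reached it in control libraries only, so its highest level was bound to be in a control. Snhg4, a listed host that stayed under 5 FPKM and is no member, was at 2.19, 0.88, 4.77 and 0.46 FPKM. Of 23 listed host genes, 21 were in the table and 13 were members, and among these 8 were higher and 1 lower in HM and 6 higher and 2 lower in LM. Of all expressed genes, 6.93% were higher and 12.4% lower in HM, and 7.09% and 8.72% in LM. The 13 were selected by level in these same libraries.

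The snoRNA genes themselves had few fragments, and the reason was not tested. Of 47 snoRNA genes inside members, 9 were above 0 in any library, with 44, 28, 97 and 18 fragments summed over them in HM_Ctrl, HM_DFX, LM_Ctrl and LM_DFX. Snord49a had 10, 4, 24 and 0 fragments, although its host 2410006H16Rik was highest in LM_DFX, and Snora73b had 13, 13, 41 and 4. These libraries give no measure of mature snoRNAs.

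Members that carry microRNAs were lower under DFX. 2610203C20Rik (chr9:41327260-41655483) was at 10.2, 0.0979, 16.1 and 0.386 FPKM, from 3894, 32, 5758 and 192 fragments. Both DFX libraries were far below both controls, 104-fold lower in HM (73.8 to 153) and 41.7-fold lower in LM (36.1 to 48.4). Gm28119 (chr9:41581908-41582283), the sense_intronic gene over miR-125b-1, was at 24.4, 0.701, 40.5 and 0.153 FPKM, with 122, 3, 190 and 1 fragments. The ratio was 34.9-fold in HM (11.7 to 171) and 264-fold in LM (46.9 to 1.05e+04), where the width of the interval comes from the few fragments left. As Gm28119 lies within 2610203C20Rik, the 2 genes are not independent observations of that region.

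Mir22hg, the host gene of miR-22, was at 5.68, 3.51, 6.44 and 0.665 FPKM, 1.62-fold lower in HM (1.26 to 2.09) and 9.69-fold lower in LM (6.5 to 15.0). The controls differed by 1.13-fold, with an interval that includes equality (0.922 to 1.4), and the DFX libraries were 5.28-fold apart (3.44 to 8.35), LM_DFX being the lower. Gm26532, named here after its values were seen because of its place beside the miR-24-2 hairpin, was at 9.43, 1.92, 9.4 and 0.728 FPKM, 4.92-fold lower in HM (3.0 to 8.49) and 12.9-fold lower in LM (6.91 to 26.7). Snhg20, which also holds the miR-6516 hairpin, is given above with the snoRNA hosts. Over the 4 members with a hairpin inside, 2 were at least 2-fold lower in HM and 4 in LM, and 0 were higher in either, beside 12.4% and 8.72% of expressed genes that were lower. As 2 of the 4 share 1 region, this count covers 3 regions. Each of the 4 reached 5 FPKM in control libraries only, so its highest level was bound to be in a control, as was that of Gm26532. The count is therefore no evidence about genes that carry microRNAs. Of 15 listed microRNA host genes, only Mir22hg was a member, and Mir17hg, just under the limit, was at 3.82, 0.827, 4.87 and 0.336 FPKM. The levels of mature microRNAs were not measured.

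Among the nuclear-retained RNAs Neat1 had the largest ratios under DFX. Neat1 (chr19:5824708-5845478), the scaffold of nuclear paraspeckles, was at 29.8, 4.48, 28.3 and 3.66 FPKM. The controls were close to each other and both DFX libraries were lower, by 6.65-fold in HM (6.28 to 7.04) and 7.74-fold in LM (7.35 to 8.16). Its neighbour on chromosome 19, Malat1, a nuclear speckle RNA, was at 41.5, 33.5, 22.1 and 15.7 FPKM. Malat1 thus differed more between the clones, 1.88-fold without DFX (1.79 to 1.97) and 2.13-fold with it (2.02 to 2.25), than between control and DFX, at 1.24-fold and 1.41-fold. Tug1 was at 18.5, 19.6, 17.8 and 11.7 FPKM, and Firre, an X-linked RNA of nuclear organisation, at 7.75, 4.61, 5.78 and 4.42 FPKM. Of the 11 listed nuclear-retained and X-inactivation RNAs these 4 were members, and under DFX only Neat1 was called, lower in both clones. Neat1 and Firre reached 5 FPKM in control libraries only, so their highest level was bound to lie there. Xist was at most at 0.0167 FPKM in any library.

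Several RNAs described in development or imprinting were lower as well. Hotairm1, an RNA described in myeloid differentiation, was at 13.2, 3.74, 20.9 and 5.71 FPKM, 3.54-fold lower in HM (2.63 to 4.84) and 3.66-fold lower in LM (2.98 to 4.52). Fendrr, divergent from the transcription factor gene Foxf1, was at 7.26, 1.36, 8.84 and 2.45 FPKM, and Foxf1 itself at 8.38, 1.15, 7.87 and 2.97 FPKM. Both genes of the pair were lower with DFX in both clones. Peg13, the imprinted RNA inside Trappc9 and the only member of 9 listed imprinted RNAs, was at 7.75, 1.53, 6.5 and 1.14 FPKM, 5.06-fold and 5.69-fold lower. Trappc9 was at 7.3, 5.99, 8.19 and 9.53 FPKM. Fendrr and Peg13 reached 5 FPKM in control libraries only, so their highest level was bound to lie there. 1700020I14Rik, the mouse Cyrano RNA, which promotes decay of miR-7, was at 13.7, 3.67, 13.4 and 5.49 FPKM, 3.74-fold (3.37 to 4.16) and 2.45-fold lower (2.27 to 2.65).

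Higher under DFX were Pvt1, the neighbour of Myc, at 3.16, 6.91, 3.35 and 8.69 FPKM, and 1810026B05Rik, known as Chaserr and starting upstream of the chromatin remodeler gene Chd2, at 1.19, 5.35, 0.966 and 5.24 FPKM. In the annotation both genes overlap on the same strand, with 30.5% of the exon bases of 1810026B05Rik inside Chd2 exons. Chaserr (1810026B05Rik), named here after its values were seen, was 4.49-fold higher in HM (3.79 to 5.34) and 5.43-fold higher in LM (4.52 to 6.56), and Chd2 was at 10.5, 24.5, 6.11 and 16.4 FPKM. Dubr stayed between 4.27 and 5.84 FPKM in the 4 libraries. Of the 39 other described RNAs in the list, 7 were members, with 1 higher and 3 lower in HM and 1 higher and 5 lower in LM. The list of p53-linked RNAs held 4 members, with 1 lower in HM, and 1 higher and 2 lower in LM, and the hypoxia-linked list held Neat1 and Pvt1 alone. Beside these counts stand 6.93% of all expressed genes higher and 12.4% lower in HM, and 7.09% and 8.72% in LM. Fendrr, Mirt1, Ptgs2os2, Neat1 and Mir22hg reached 5 FPKM in control libraries only, so their highest level was bound to lie there. Pvt1 and 1810026B05Rik reached it in DFX libraries only, so their highest level was bound to be under DFX. The list of RNA components of enzymes held 0 members.

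**Figure D3:**
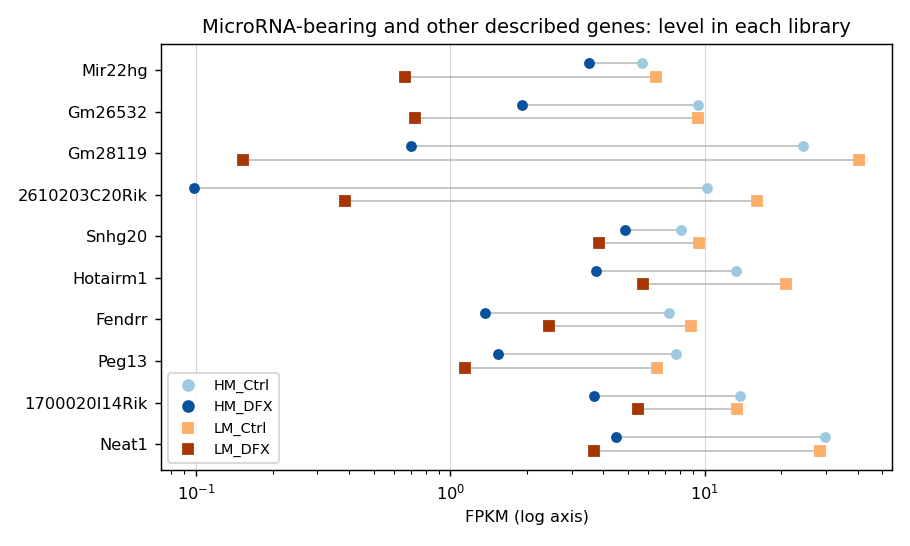
Level of 10 members that were lower under DFX, in FPKM on a log axis, with a line joining the control and DFX library of each clone (circles HM, squares LM). Both DFX points lie left of their controls in each gene, and the widest spans are those of 2610203C20Rik and Gm28119, the genes around miR-125b-1.

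The largest log2 ratio in HM belonged to Gm26917 (chr17:39843013-39846341), a lincRNA beside the ribosomal RNA gene Rn18s-rs5. It was at 83.8, 1188, 39.5 and 271 FPKM, 14.2-fold higher in HM (13.8 to 14.6) and 6.86-fold higher in LM (6.56 to 7.18). Its neighbour Gm42418, on the strand opposite Rn18s-rs5, was at 259, 925, 258 and 438 FPKM. Together they took 0.0754%, 0.565%, 0.0604% and 0.17% of all fragments, more than all other members together in HM_DFX. Rn7sk, a nuclear RNA without poly(A) tail and no member, moved alongside them, at 3.61, 73.8, 0.96 and 28.6 FPKM. How much residual ribosomal or other RNA without poly(A) tail contributed to these values was not tested. Without the pair, 30 of 126 members were higher and 32 lower in HM, and 29 and 31 in LM.

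Further members with large values had little or no described function. F730043M19Rik was at 7.24, 0.408, 12.1 and 0.624 FPKM, 17.8-fold lower in HM (12.1 to 27.2) and 19.3-fold lower in LM (14.9 to 25.3). Gm13387 was at 4.37, 0.0242, 7.21 and 0.904 FPKM, with a single fragment in HM_DFX, and 2010300F17Rik at 2.87, 0.123, 9.54 and 0.371 FPKM. In each of these 3 genes both DFX libraries lay below both controls. F730043M19Rik reached 5 FPKM in control libraries only, and Gm13387 and 2010300F17Rik in LM_Ctrl only, so their highest level was bound to lie there. Spata5l1, an ATPase gene that the file labels processed_transcript, was at 4.01, 28.4, 5.75 and 25.4 FPKM, 7.06-fold higher in HM (5.73 to 8.78) and 4.42-fold higher in LM (3.69 to 5.32). A930015D03Rik, antisense in the histocompatibility region opposite H2-T22, was at 1.56, 12.7, 3.6 and 19.2 FPKM, and H2-T22 at 6.26, 6.42, 8.96 and 16.3 FPKM. Gm13205, opposite the transcription factor gene Casz1, was at 0.531, 10.0, 0.566 and 4.96 FPKM, from 5, 81, 5 and 61 fragments. Casz1 was at 0.249, 2.72, 0.229 and 1.57 FPKM. A930015D03Rik reached 5 FPKM in DFX libraries only and Gm13205 in HM_DFX only, so the highest level of each was bound to lie there.

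Of the 128 members, 50 had exons opposite exons of a protein-coding gene. The strand setting of the count is not known. Of 26 noncoding genes with at least 99% of their exon bases opposite exons of a gene at 20 FPKM or more, 24 were above 0, whereas all 3 genes with at least 50% of exon bases under exons of such a gene on the same strand were at 0. In 48 pairs with an expressed partner, the noncoding gene had the sign of its partner in 37 for HM_DFX against HM_Ctrl and in 36 for LM_DFX against LM_Ctrl. Of 16 such members called in HM, 10 had a partner called the same way, and of 18 called in LM, 10 did. In 15 divergent pairs the sign was shared by 10 in each clone. Of all 12669 expressed genes, 6.93% were called higher and 12.4% lower in HM, and 7.09% and 8.72% in LM. By sign, 5531 were above 0 and 7083 below 0 in HM, and 5929 and 6662 in LM. Pairs of unlinked genes were not compared, so these counts do not show that members and partners move together more than other genes. For 6 members whose exons lie wholly opposite those of 1 partner gene, the noncoding level was 5.59% to 24.2% of the partner's in the 4 libraries, with a median of 15.7%. Whether fragments of the partner were assigned to the wrong strand was not tested.

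Gm17035, opposite Ndrg1, a gene known to be induced by iron chelation and hypoxia, was at 30.1, 99.9, 6.83 and 82.7 FPKM. Ndrg1 was at 177, 577, 49.1 and 613 FPKM, so both genes were lowest in LM_Ctrl, and their DFX libraries were closer than their controls. The ratio of Gm17035 was 3.32-fold in HM (2.83 to 3.9) and 12.1-fold in LM (8.96 to 16.7). Gm2895, also opposite Ndrg1 and named after its values were seen, was at 0.692, 3.62, 0.318 and 5.79 FPKM. LM_DFX, its only library at 5 FPKM or more, was bound to be its highest. Gm12868, opposite the glucose transporter gene Slc2a1, showed the same shape at a lower level, with 5.44, 9.02, 1.52 and 9.1 FPKM against 107, 207, 40.3 and 231 for Slc2a1.

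Gm13822, opposite the interferon-induced gene Oasl1, had 0 fragments in both controls and 6 and 43 in HM_DFX and LM_DFX, or 1.21 and 5.68 FPKM. With 3 fragments per library as the limit that a count of 0 allows, it was at least 2.33-fold higher in HM and at least 10.3-fold higher in LM. Oasl1 was at 7.81, 84.6, 3.44 and 90.4 FPKM. Gm15270, opposite Ctgf, which encodes a matricellular protein, was at 1.13, 0.203, 6.69 and 0.156 FPKM, and Ctgf at 22.9, 1.87, 103 and 2.75 FPKM, so LM_Ctrl was the highest library for both. Gm4189, opposite the stress-induced factor gene Ddit3, was at 0.97, 6.95, 0.737 and 2.01 FPKM from 7, 43, 5 and 19 fragments, and Ddit3 at 79.8, 148, 6.05 and 111 FPKM. Gm13822 reached 5 FPKM in LM_DFX only, Gm15270 in LM_Ctrl only and Gm4189 in HM_DFX only, so that library was bound to be their highest. Gm11175, opposite Jund, passed 2-fold in no comparison, at 88.3, 94.3, 81.5 and 64.6 FPKM beside 442, 450, 377 and 341 for Jund.

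Gm10634 was at 0.242, 5.06, 0.0774 and 4.77 FPKM, whereas Mthfsl, the gene opposite, was at 2.21, 1.93, 2.49 and 2.91 FPKM. Gm10634 reached 5 FPKM in HM_DFX only, so that library was bound to be its highest, and Mthfsl was not selected by level. Snhg1 and its divergent neighbour Slc3a2, the heavy chain of amino acid transporters, were both higher with DFX, Slc3a2 at 76.8, 216, 62.6 and 185 FPKM. Traf7, divergent from Rab26os, stayed between 24.4 and 28.1 FPKM in the 4 libraries.

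**Figure D4:**
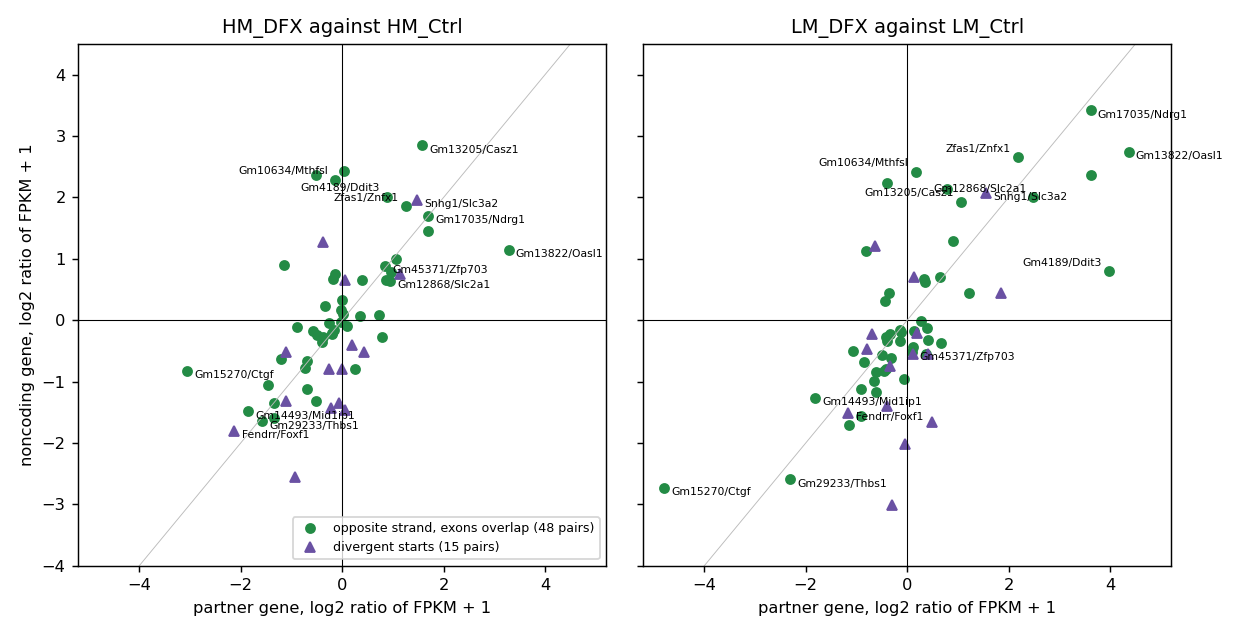
Log2 ratio of FPKM + 1 of noncoding members (y axis) against that of the protein-coding partner (x axis), for DFX in the HM clone (left) and in the LM clone (right). Circles are 48 pairs with exons on opposite strands and triangles 15 pairs with divergent starts, the grey line marks equality, and 37 of the 48 pairs in HM and 36 in LM shared a sign.

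Without DFX the clones differed in few members. Of 128, 5 passed 2-fold with the higher level in HM_Ctrl and 9 with the higher level in LM_Ctrl, where 3.65% of expressed genes were higher in HM_Ctrl and 3.15% lower, and the median log2 ratio of members was -0.04. These counts are no evidence about noncoding genes as a class, since the members were selected on the same libraries. Ptgs2os2, Gm15270, Mirt1 and Gm16104 reached 5 FPKM in LM_Ctrl only, so that library was bound to be their highest. 2010204K13Rik and Platr16 reached it in LM libraries only, so their highest level was bound to be in LM. The largest difference was in Ptgs2os2 (chr1:150159043-150164948), known as lincRNA-Cox2, an RNA of inflammatory gene regulation next to Ptgs2. It was at 0.924, 0.439, 9.58 and 3.09 FPKM, 10.4-fold lower in HM without DFX (6.97 to 16), and both HM libraries lay below both LM libraries. Gm15270, given above, was 5.9-fold lower in HM_Ctrl (4.18 to 8.52). Mirt1, at 1.5, 0.289, 5.28 and 1.01 FPKM, was 3.53-fold lower (3.03 to 4.13), and 2010204K13Rik, at 2.49, 1.67, 8.95 and 8.28 FPKM, was 3.6-fold lower (2.72 to 4.81) and stayed so under DFX. Platr16 was at 2.87, 2.09, 9.18 and 5.36 FPKM, and Gm16104, opposite the transcription factor gene Nfic, at 1.64, 2.08, 6.66 and 3.3 FPKM from 11, 12, 42 and 29 fragments.

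Higher in HM_Ctrl were Gm17035 and Gm12868, given above, Gm26917, RP23-98C9.5 and 9630013D21Rik. RP23-98C9.5, which overlaps the metallothionein gene Mt2 on the opposite strand, was at 10.2, 18.3, 2.39 and 3.6 FPKM. It was 4.29-fold higher in HM without DFX (3.45 to 5.39) and 5.09-fold higher with it (4.36 to 5.97). Mt2 was at 421, 823, 94.4 and 222 FPKM. 9630013D21Rik was at 7.13, 0.842, 2.14 and 0.887 FPKM, 3.32-fold higher in HM without DFX (2.67 to 4.16) and 1.05-fold lower with it (0.691 to 1.62). Gm38399, just under the threshold, was at 6.61, 0.973, 2.86 and 2.03 FPKM. Gm38399 and 9630013D21Rik reached 5 FPKM in HM_Ctrl only, so that library was bound to be their highest.

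**Figure D5:**
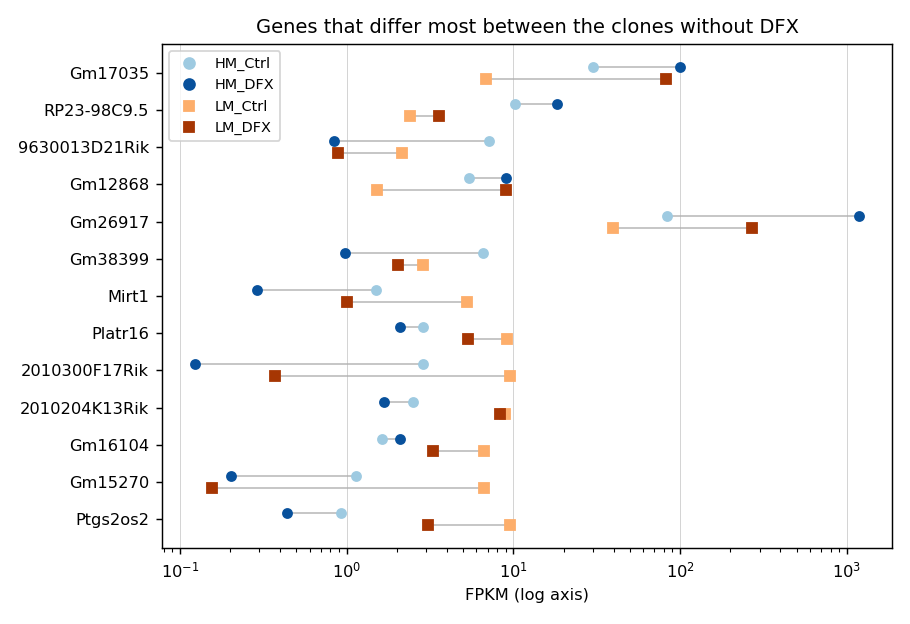
Level of the 6 members with the largest and the 7 with the smallest log2 ratio of HM_Ctrl to LM_Ctrl, in FPKM on a log axis, with a line joining the control and DFX library of each clone (circles HM, squares LM). In the lower 7 genes the HM_Ctrl point lies left of the LM_Ctrl point, with the widest gap in Ptgs2os2.

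With DFX, 11 members passed 2-fold with the higher level in HM and 13 with the lower, beside 3.31% and 5.05% of expressed genes. The selection of members on these libraries affects this contrast as well. The higher ones included Gm26917, RP23-98C9.5, Mir22hg, Gm4189 and Gm45371. Gm45371, opposite the transcription factor gene Zfp703, was at 5.2, 10.5, 3.88 and 2.39 FPKM, 4.38-fold higher in HM_DFX than in LM_DFX (2.72 to 7.29), while Zfp703 was at 23.8, 43.4, 16 and 17.1 FPKM. Gm8066 was at 8.0, 10.2, 5.5 and 3.77 FPKM. The lower ones included 2010204K13Rik, Ptgs2os2 and Gm13822, given above. Gm15867, opposite Sertad4, was at 3.85, 0.897, 7.37 and 4.95 FPKM and Gm13375, divergent from Arhgap21, at 3.85, 0.897, 7.44 and 4.01 FPKM, and both were lowest in HM_DFX. Gm15867 and Gm13375 reached 5 FPKM in LM_Ctrl only, so that library was bound to be their highest.

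The difference between the responses of the 2 clones was at least 2-fold in 27 members: 15 had the higher log2 ratio in HM, beside 3.52% of expressed genes, and 12 the lower, beside 5.38%. This contrast too is affected by the selection of members on these libraries. The counting interval of the ratio of responses, here an approximate one, lay wholly past 2-fold in only 4 and 6 members. At 4-fold there were 0 and 0, so most of these differences are uncertain in size by counting error alone. On the scale of FPKM + 1 the largest positive difference was in Gm15270, whose ratio of DFX to control in HM was 7.7 times that in LM (2.55 to 23.2), followed by Rab26os (4.89 times, 1.75 to 13.7) and Mir22hg (5.91 times, 3.72 to 9.4). In each of these 3, both clones were lower under DFX and LM more so. Snhg3 had the same shape, with 2.82 times (1.98 to 4.01). Gm15270 and Rab26os reached 5 FPKM in LM_Ctrl only and Mir22hg in control libraries only, so their highest level was bound to lie there. At the other end stood Gm13203, Gm17035, Gm13822, Gm38399 and Gm13056. Of these, Gm13203 and Gm13822 reached 5 FPKM in LM_DFX only and Gm38399 in HM_Ctrl only, so that library was bound to be their highest. Gm13056 was at 20.4, 2.84, 18.4 and 8.91 FPKM, 7.2-fold lower in HM (4.66 to 11.6) and 2.06-fold lower in LM (1.61 to 2.65), and Gm43153, at 19.8, 3.96, 17 and 10.4 FPKM, had the same shape. Both were at similar levels in the controls and lowest in HM_DFX.

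Letters of the hypoxia response element core, ACGTG, were searched on both strands of the promoter windows of 59 members that RefSeq lists. They were present in 20 (33.9%), beside 19.7% of all 27025 promoters, in 6 of 17 (35.3%) that were higher under DFX in both clones and in 1 of 4 that were lower in both. CCAAT was in 35.6% of member promoters and 37.9% of all. A match is a description of the letters and no evidence of binding.

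The limit of 5 FPKM fell among genes with close values. Just inside it were Gm10634 with a highest level of 5.06 FPKM, Gm14005 with 5.04 and Gm12264 with 5.02. Just outside were Gm28809 with 4.99, Gm28727 with 4.99 and 1700086O06Rik with 4.98. In all, 80 and 71 members reached 5 FPKM in the control and DFX library of HM, 88 and 69 in those of LM, and 39 did so in all 4 libraries. The median member had 182.5, 105, 192.5 and 183 fragments in these libraries, and the lowest had 0 or 1, so the ratios of members named with fewer than 20 fragments rest on few counts.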

How the data were processed

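Total RNA was taken through poly(A) selection and a directional library kit (removal of ribosomal RNA is also mentioned), with paired reads. The submitters' processing notes name FastQC, Trimmomatic, HISAT2, featureCounts and mm10, and versions and the strand setting are not given in the sources used here. The deposited values are FPKM per gene and library, as made by the authors.

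Samples were grouped by their labels. The background was 12669 genes with at least 1 FPKM in any library. Log2 ratios are of FPKM + 1, which understates ratios of low genes, and 2-fold was called, whereas printed folds and intervals are of FPKM. Fragments were recovered from FPKM and exon lengths of GENCODE M21 (116 members), or a length solved to give whole fragments (12 members), within 0.02. The 95% intervals cover counting error only, and those of ratios between 2 libraries are exact. Ratios of responses and their intervals instead come from fragment counts with a small constant added, by a normal approximation on the log scale.

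Named were the 10 members with the highest mean, the 6 largest and 6 smallest of each comparison, members of the lists (snoRNA hosts, nuclear-retained, imprinted, microRNA host, p53-linked, hypoxia-linked, RNA components, other described RNAs), 3 genes on either side of the limit, and partner genes overlapping or within 5 kb. The members and lists were chosen with earlier results of these data known. Scripts were tested on simulated data and used Python 3.11.15, numpy 2.4.6, pandas 2.3.3, scipy 1.17.1 and matplotlib 3.10.9. Alternatives were another pseudocount, scalings, thresholds and member rules.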

Additional observations from a re-analysis of the deposited data

Results flagged for a closer look

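In 6 members the log2 ratios of DFX to control had opposite signs in HM and LM and were at least 1 apart, though none passed 2-fold in both directions and in Gm17111 and Gm16104 the HM libraries were close to each other. The difference was not tested, as there was 1 library per condition. Gm13203 had the largest, -1.82: it was at 2.87 and 1.74 FPKM in HM_Ctrl and HM_DFX and at 1.71 and 5.8 in the LM libraries, from 25, 13, 14 and 66 fragments. Gm17111, opposite Dync1h1, the heavy chain gene of cytoplasmic dynein, differed by -1.33, at 4.36, 4.23, 1.86 and 6.0 FPKM, and Dync1h1 was at 60.8, 60.3, 37.3 and 71.0 FPKM. In the other direction Gm45371 differed by 1.41 and Gm12940, which RefSeq lists as protein-coding, by 1.33, at 5.39, 7.07, 6.59 and 2.81 FPKM. Gm43579 differed by 1.09, at 3.52, 6.13, 3.94 and 2.66 FPKM, and Gm16104 by 1.06, from 11, 12, 42 and 29 fragments. Gm13203 and Gm17111 reached 5 FPKM in LM_DFX only, Gm43579 in HM_DFX only and Gm16104 in LM_Ctrl only. That library was bound to be their highest, so their opposite signs are affected by the selection of members.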

How the results depend on the processing

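Counts below are of members past 2-fold unless another threshold is named, with the higher ones first. With a pseudocount of 0.1 in place of 1, members higher in HM_Ctrl numbered 8, and those higher and lower in HM_DFX against LM_DFX 18 and 21. Median-ratio scaling moved the median log2 ratio in HM under DFX to -0.0384. At 4-fold, counts were 0 and 1 between the controls, 11 and 9 for DFX in HM, 14 and 12 for DFX in LM, 2 and 0 between the DFX libraries, and 0 and 0 for the difference of responses. With members chosen at 10 FPKM, there were 3 and 1 between the controls, 17 lower for DFX in HM with a median of 0.0937, 19 and 14 for DFX in LM, 7 and 4 between the DFX libraries, and 5 and 5 for the responses. With members chosen at a mean of 5 FPKM, 2 were lower between the controls, 21 and 18 differed for DFX in HM with a median of 0.0245, 15 were lower for DFX in LM, 7 lower between the DFX libraries, and 6 and 7 differed in response. Among members with no gene on the opposite strand, there were 1 and 3 between the controls, 15 and 16 for DFX in HM with a median of -0.39, 13 and 16 for DFX in LM, 2 higher between the DFX libraries, and 5 and 5 for the responses. Where the whole counting interval had to pass 2-fold, 7 were higher between the DFX libraries, and 4 and 6 differed in response. The last 4 sets differ by construction, as they hold fewer members or ask for more. Scaling to the 75th percentile, and leaving out Gm42418 and Gm26917, an alternative chosen after seeing the data, kept each of these counts within 1.5 times.

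Of the calls of single named members, none changed direction under another pseudocount or scaling. The response difference of 2410006H16Rik (-0.999) and the ratio of Platr16 between the DFX libraries (-0.99) fell short of 2-fold under median-ratio scaling, and the response difference of 2010300F17Rik (0.62) under the smaller pseudocount, and the cause was not tested. No paired analysis was possible because each condition has 1 library, which also leaves no replicate to leave out. Ratios of members with few fragments are limited by depth.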
